A study of Mus musculus with 6 samples.

Results

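The forebrain and eye field regulators described here are 10 genes for transcription factors: Rax, Six3, Six6, Lhx2, Lhx5, Hesx1, Fezf1, Fezf2, Otx2 and Pax6. They were found on the array as every probe whose symbol in the platform annotation is one of these names, which gave 16 of 45281 probes and 10 of 19057 named genes. RNA came from wild-type CD-1 mouse embryos labelled E8.5, from which neural ectoderm (NE) and surface ectoderm (SE) at the level of the forebrain had been separated with tungsten needles after enzyme treatment, with the aim of leaving the cephalic mesenchyme behind. Each of the 6 RNA samples, 3 for NE and 3 for SE, was a pool of many embryos and was hybridised to 1 single-colour Illumina MouseWG-6 v2 array. The study gives the stage of these pools as a short range that starts earlier and ends at E8.5. The study set the tissues against each other to find signals and factors that divide neural from surface fate while the neural tube closes.

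At this stage the rostral neural plate folds up into the forebrain, and a single field in its middle, the eye field, gives rise to both optic vesicles. Its cells are specified by a set of homeodomain factors, of which Rax, Six3, Lhx2, Six6 and Pax6 are the best known, within a rostral territory that Otx2 sets up and that Hesx1, Six3, Fezf1 and Fezf2 keep free of more caudal character. The surface ectoderm beside it forms epidermis and, next to the optic vesicle, the lens, for which Pax6 and Six3 are needed in the ectoderm itself.

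Of the 10 regulators, 8 had a probe that could be tested, and all 8 were higher in NE. Their SE levels were not alike: Fezf1, Fezf2, Otx2 and Six3 were detected on every SE array, whereas Rax, Lhx2, Lhx5 and Hesx1 were detected on every NE array and on no SE array. Six6 and Pax6 were not detected on any array. A probe was called detected where its detection p, the share of negative control probes as bright as it, was under 0.05. It was tested where it was detected on at least 3 of the 6 arrays, so a gene that passed through NE alone had to differ. Over all 10603 genes tested, 21.6% passed with the higher level in NE and 18.7% with the higher level in SE, and 40.3% passed in either direction at an adjusted p under 0.05 (limma, Benjamini-Hochberg). At all 11 tested probes of the regulators every NE array was above every SE array, which held for 27.9% of all 19590 probes tested. Of these 11 probes, 7 passed through NE alone and had little room to overlap, and 4 were detected on all 6 arrays. The samples being bulk tissue, fewer cells expressing a gene and less RNA per cell cannot be told apart.

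**Figure D1:**
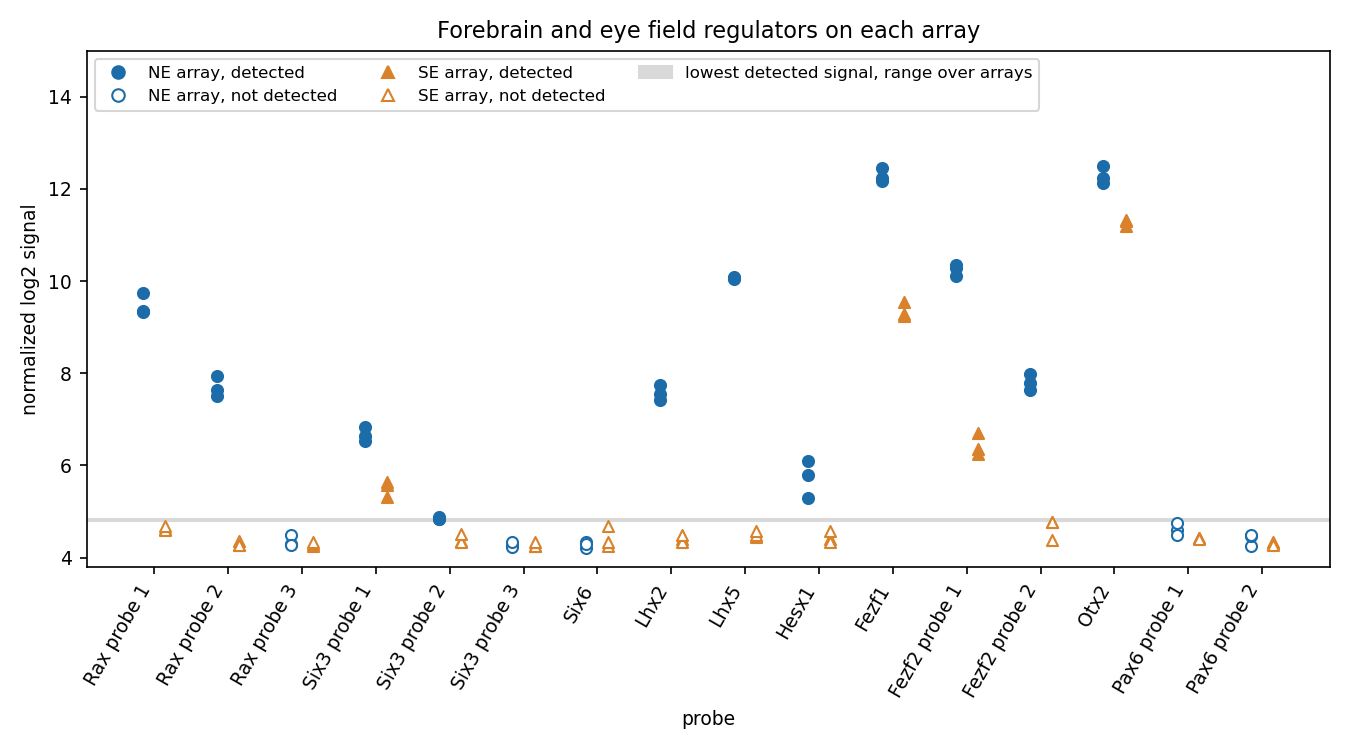
Normalized log2 signal (vertical axis) of each of the 16 probes of the 10 regulators (horizontal axis) on the 3 NE arrays (circles) and the 3 SE arrays (triangles), filled where the probe was detected and open where it was not, with the range over arrays of the lowest detected signal, 4.79 to 4.83, as a grey band. Fezf1, Fezf2 probe 1, Otx2 and Six3 probe 1 have filled triangles, while Rax, Lhx2, Lhx5 and Hesx1 have open ones only, and both Pax6 probes and the Six6 probe are open throughout.

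Among the eye field factors, Rax, the homeobox gene without which no optic vesicle forms, had 3 probes. At ILMN_2753549 the log2 signals were 9.35, 9.34 and 9.74 on NE arrays 1, 2 and 3 and 4.62, 4.60 and 4.68 on SE arrays 1, 2 and 3. Each SE value lay below the lowest detected signal, so SE has only an upper limit here. Rax was at least 25.0-fold higher in NE, a limit set by the lowest signal detected on each SE array. Having passed through NE alone, it had to differ. The adjusted p of 2.56e-07 (limma) belongs to the fitted difference and not to this limit. The limit holds after background correction: the fitted log2 difference of -4.84 became -3.26 without that correction. The second probe, ILMN_2753555, read 7.64, 7.50 and 7.94 on the NE arrays and 4.35, 4.28 and 4.28 on the SE arrays, at least 7.29-fold higher in NE. The third, ILMN_2556389, was designed to a different cDNA record and was not detected on any array, its raw signals running from 48.6 to 60.5.

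Lhx2, a LIM homeodomain gene needed for the optic vesicle to become an optic cup and for the cerebral cortex, followed the same pattern at its only probe, ILMN_2722383. Its log2 signals were 7.54, 7.41 and 7.74 on the NE arrays and 4.39, 4.33 and 4.48 on the SE arrays. All 3 NE arrays detected it and no SE array did. The difference was at least 6.67-fold, and Lhx2, having passed through NE alone, had to differ. The fitted log2 difference of -3.16 (limma, adjusted p = 6.59e-07) became -1.76 without background correction.

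Six3, a homeodomain repressor that keeps Wnt1 and Wnt8b out of the rostral forebrain and is also needed in the lens ectoderm, was present in both tissues. At ILMN_2983735 the log2 signals were 6.64, 6.52 and 6.85 on the NE arrays and 5.65, 5.32 and 5.59 on the SE arrays, and all 6 arrays detected it. The groups did not overlap, and NE was 2.22-fold higher (95% confidence interval 1.83 to 2.69, limma, adjusted p = 2.33e-04), a log2 difference of -1.15 that became -0.63 without background correction. At ILMN_1235642 the signals lay close to the detection limit, at 4.83, 4.83 and 4.88 in NE, where it was detected, and 4.37, 4.35 and 4.52 in SE, where it was not. The difference there was at least 1.01-fold, at a probe that passed through NE alone and had to differ (limma, adjusted p of the fitted difference = 3.79e-03). ILMN_2764616 was not detected on any array.

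Six6, a close relative of Six3 that acts in the retina, hypothalamus and pituitary, and Pax6, a regulator of both the optic vesicle and the lens, stayed at the level of the negative controls. The raw signals of Six6 at ILMN_2594461 ran from 44.5 to 67.1, and its lowest detection p was 0.112. The raw signals of Pax6 at ILMN_2504978 and ILMN_2612187 ran from 46.8 to 68.9, and its lowest detection p was 0.0595, on NE array 3. The lowest raw signal that counted as detected was 66.8 to 70.2, depending on the array. Their expression was not detectable with these probes, and no difference between the tissues was tested.

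Lhx5, a LIM homeodomain gene of the rostral neural plate that in zebrafish promotes forebrain fate through secreted Wnt antagonists, had the most even NE levels of the 8 tested genes. At ILMN_1220665 its log2 signals were 10.05, 10.06 and 10.08 on the NE arrays and 4.45, 4.49 and 4.59 on the SE arrays. In raw units it read 1116, 1161 and 1180 in NE and 58.3, 61.0 and 64.5 in SE, where no array detected it. Lhx5 was at least 37.7-fold higher in NE and, having passed through NE alone, had to differ. The fitted log2 difference of -5.56 (limma, adjusted p = 3.54e-08) became -3.87 without background correction.

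Hesx1, a paired-like homeodomain repressor needed for the rostral forebrain, the eyes and the pituitary, was low and uneven. Its log2 signals at ILMN_2751927 were 6.09, 5.30 and 5.79 on the NE arrays and 4.39, 4.57 and 4.33 on the SE arrays. NE array 2 was the lowest of the 3 NE arrays, yet above every SE array. The difference was at least 1.86-fold, and Hesx1, detected on no SE array, had to differ. The fitted log2 difference of -1.29 (limma, adjusted p = 1.32e-03) became -0.58 without background correction.

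Fezf1 and Fezf2, paralogous zinc finger repressors that keep the rostral forebrain from taking on caudal diencephalic identity, were both measured in SE as well as in NE. Fezf1 at ILMN_2733155 read 12.24, 12.17 and 12.46 on the NE arrays and 9.29, 9.54 and 9.24 on the SE arrays, and was 7.64-fold higher in NE (95% confidence interval 6.35 to 9.18, limma, adjusted p = 1.39e-06). Its raw SE signals of 660, 788 and 586 were far above the lowest detected signal. Fezf2 at ILMN_2512430 read 10.29, 10.11 and 10.36 on the NE arrays and 6.25, 6.35 and 6.70 on the SE arrays, and was 14.1-fold higher in NE (95% confidence interval 11.5 to 17.4, limma, adjusted p = 8.26e-07). This size depended on the background step: the log2 difference of -3.82 became -3.15 without background correction. Its second probe, ILMN_2932692, was detected on the NE arrays at 7.78, 7.64 and 7.98 and on no SE array, where it read 4.38, 4.78 and 4.78, at least 7.86-fold lower than in NE. Fezf2 is thus detected in SE by 1 of its 2 probes.

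Otx2, the homeobox gene on which the whole forebrain and midbrain depend and which is known from both the neural and the surface part of the rostral ectoderm, was detected on all 6 arrays. At ILMN_2691752 its log2 signals were 12.13, 12.25 and 12.51 on the NE arrays and 11.21, 11.34 and 11.30 on the SE arrays. The raw signals were 4611, 5169 and 5972 in NE and 2391, 2618 and 2307 in SE. The groups did not overlap, and NE was 2.02-fold higher (95% confidence interval 1.70 to 2.41, limma, adjusted p = 2.70e-04). The differences between these genes were not themselves tested.

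**Figure D2:**
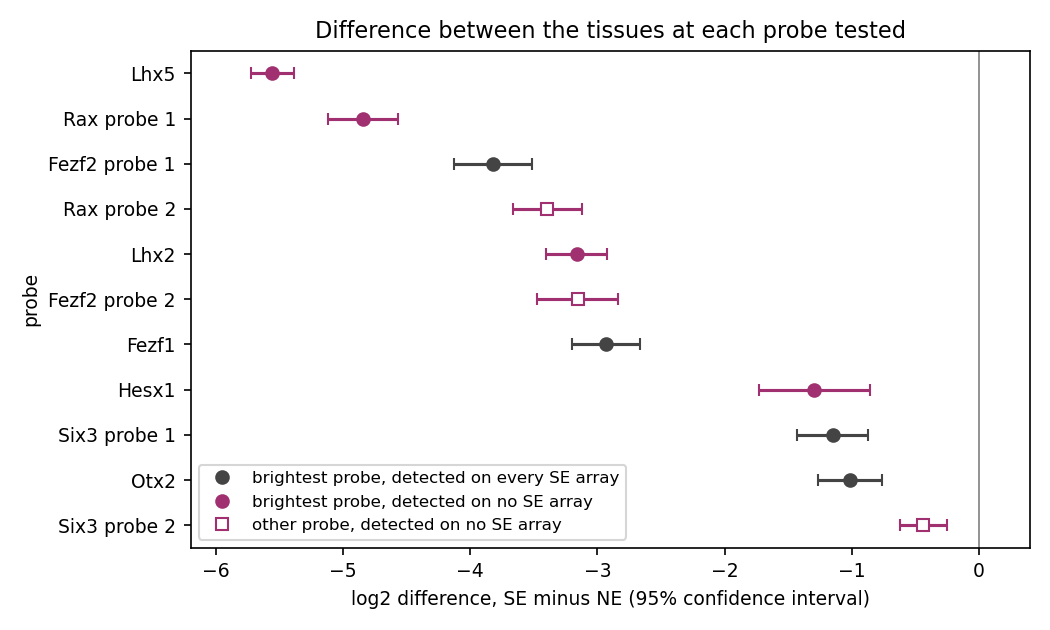
Fitted log2 difference, SE minus NE (horizontal axis, points with 95% confidence intervals over 3 arrays a tissue), at each of the 11 tested probes (vertical axis). All 11 lie left of 0, from -5.56 for Lhx5 to -0.44 for the second Six3 probe, and the magenta points, detected on no SE array, are fitted values whose SE side was not measured, larger than the limits given in the text.

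The promoters of the 4 regulators detected in both tissues are shown because these are the genes whose SE level could be measured. They are 250 bases upstream of a RefSeq start site on build GRCm38.p6, written 5′ to 3′ on the gene's own strand. Capitals mark each match, on either strand, to 1 of 5 motifs: TAATCC of bicoid type homeodomains such as that of Otx2, TAATTA of paired and LIM type homeodomains such as those of Rax and Lhx2, CTTTGA of TCF/LEF factors, ACCGGTT of Grainyhead-like factors and ACAAT of SOX factors. Otx2 has several start sites, and the window with most matches is the one printed.
Otx2, chr14:48665110-48665359, minus strand: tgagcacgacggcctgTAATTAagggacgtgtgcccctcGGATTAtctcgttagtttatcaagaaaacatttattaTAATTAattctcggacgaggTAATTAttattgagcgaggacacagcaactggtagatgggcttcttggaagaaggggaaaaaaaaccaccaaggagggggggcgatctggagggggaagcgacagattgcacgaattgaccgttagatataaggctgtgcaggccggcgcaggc
Fezf2, chr14:12345866-12346115, minus strand: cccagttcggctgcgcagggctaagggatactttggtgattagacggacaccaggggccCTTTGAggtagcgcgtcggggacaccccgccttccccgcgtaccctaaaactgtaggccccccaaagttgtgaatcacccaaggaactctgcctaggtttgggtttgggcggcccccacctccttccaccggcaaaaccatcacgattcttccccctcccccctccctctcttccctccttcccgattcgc
Fezf1, chr6:23248265-23248514, minus strand: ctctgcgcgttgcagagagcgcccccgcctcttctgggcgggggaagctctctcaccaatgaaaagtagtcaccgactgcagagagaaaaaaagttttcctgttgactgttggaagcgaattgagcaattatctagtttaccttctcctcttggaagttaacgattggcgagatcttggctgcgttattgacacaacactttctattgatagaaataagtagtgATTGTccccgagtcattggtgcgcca
Six3, chr17:85620584-85620833, plus strand: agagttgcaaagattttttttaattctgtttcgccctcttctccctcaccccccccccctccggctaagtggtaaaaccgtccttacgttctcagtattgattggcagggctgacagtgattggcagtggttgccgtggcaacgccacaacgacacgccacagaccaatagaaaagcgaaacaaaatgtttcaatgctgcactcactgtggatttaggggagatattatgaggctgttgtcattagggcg

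In these windows Otx2 held 3 matches to TAATTA and 1 to TAATCC, Fezf2 held 1 to CTTTGA, Fezf1 held 1 to ACAAT, and Six3 held none. Windows were read for 8 of the 10 regulators, all but Rax and Lhx5, 13 windows in all. TAATCC was found in 1 of them, against 6.25% of all 32851 promoter windows of that length, and TAATTA in 2, both of Otx2, against 4.84%. CTTTGA was in 1 (13.8% of all windows), ACAAT in 4, of Fezf1, Otx2 and Pax6 (27.7%), and ACCGGTT in 0 (0.831%). A match is a stretch of letters and no evidence of binding.

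Most of the regulators were highest on the same NE array. Of the 8 tested, 7 were highest on NE array 3, the exception being Hesx1, highest on NE array 1, and 6 were lowest on NE array 2. How many of all tested genes did likewise was not counted. This order is therefore not shown to be particular to the regulators. Their median deviation from the NE mean was -0.03, -0.14 and 0.17 (log2) on NE arrays 1, 2 and 3. Midbrain and hindbrain markers did otherwise: 5 of 7 were highest on NE array 2, and their median deviations were -0.19, 0.47 and -0.37. En1, which marks the boundary of midbrain and hindbrain, read 9.70, 11.05 and 9.71 on the NE arrays, and En2, its paralog, 7.13, 9.14 and 7.58. These markers did not share a direction between the tissues. At their brightest probes En1 was 26.9-fold and En2 6.51-fold higher in NE, while Irx2 was 2.81-fold and Irx3 4.38-fold higher in SE. The 2 tested probes of En1 ran from -4.75 to -2.09 (log2). The NE count of 2 fell to 1 without variance moderation. Gbx2, Irx1 and Egr2 passed in neither direction. Over the 3 NE arrays the regulators spanned a median of 0.33 (log2), and all genes tested 0.20, with Lhx5 at 0.03 and Hesx1 at 0.79 as the extremes among the regulators. The part of the midbrain and hindbrain signal in the NE levels of these regulators was not tested. The study's own heat map appears to show NE replicates 2 and 3 in the opposite order from the labels, so the numbers of these 2 arrays are uncertain, which does not touch the comparison of NE with SE.

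**Figure D3:**
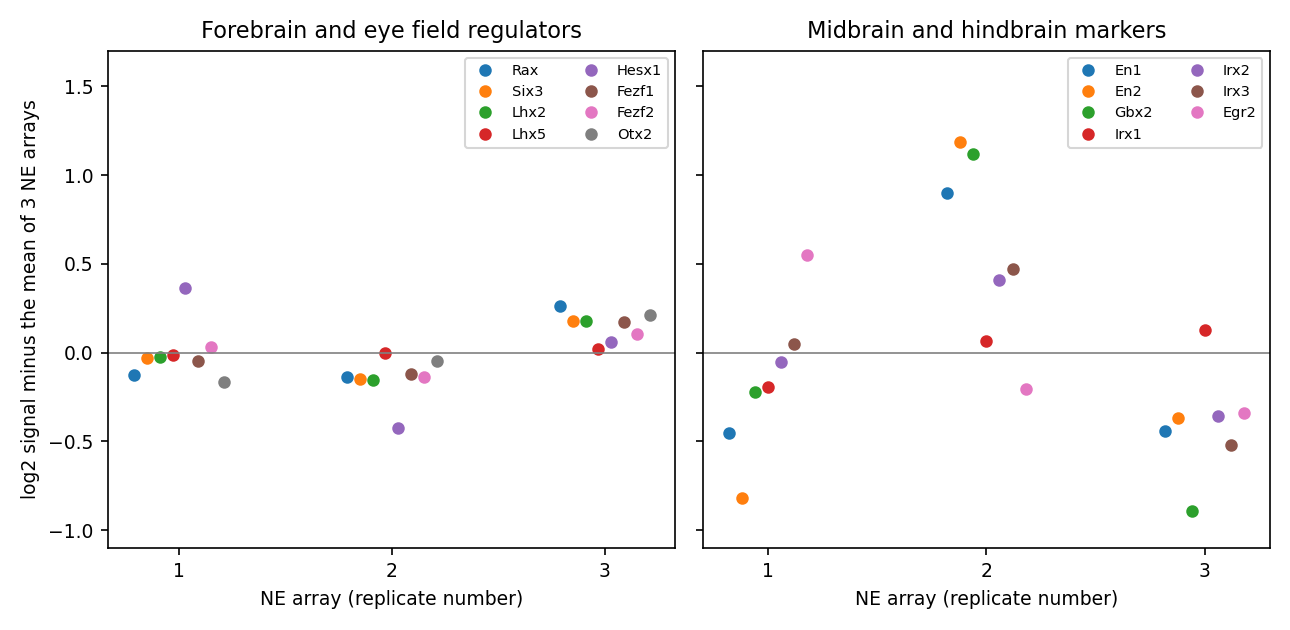
Log2 signal of each gene on NE arrays 1, 2 and 3 (horizontal axis) minus its mean over these 3 arrays (vertical axis), for the 8 tested regulators (left) and 7 midbrain and hindbrain markers (right). The regulators stay within 0.43 of 0, most of them highest on array 3, while En1, En2 and Gbx2 stand 0.90, 1.19 and 1.12 above their means on array 2.

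Genes that work with these regulators in the eye field and optic vesicle were mostly higher in NE where they passed. Among 8 tested genes NE was the higher tissue for 4 and SE for 1, 3 falling short of the threshold, and the median log2 difference was -0.71, or -0.65 with a gene undetected in SE at its limit, beside -0.02 over all genes. Sfrp1, a secreted Wnt antagonist, was 5.42-fold and Fzd5, the Frizzled receptor of the eye field, 5.06-fold higher in NE. The 2 tested probes of Fzd5 ran from -2.34 to -1.48 (log2). Foxd1, of the ventral optic vesicle and retina, was at least 2.17-fold higher in NE. It was detected on no SE array, so it had to differ. Tbx3 ran the other way, at 4.92, 4.72 and 4.33 on the NE arrays and 6.36, 6.45 and 6.48 on the SE arrays, and was higher in SE (limma, adjusted p = 6.58e-05). It was detected on 1 NE array, so the size is not well measured, and its 3 tested probes ran from 0.71 to 1.77 (log2).

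The regulators of the telencephalon and hypothalamus that could be tested, 5 genes, were all higher in NE (median -1.68, or -1.26 with undetected genes at their limit). Nkx2-2, a ventral patterning gene, was at least 5.17-fold, Nkx2-1, which specifies the hypothalamus and ventral telencephalon, at least 3.40-fold and Nkx2-4 at least 2.32-fold higher, and these 3 were detected on no SE array, so that they too had to differ. Dbx1, a homeobox gene of neural progenitors, was 2.39-fold higher in NE and detected on every array. Emx1 and Emx2, which pattern the dorsal telencephalon, were not detected on any array.

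Of the genes of the head organizer and the partners of Otx2, 5 of 8 tested were raised in NE and 0 in SE, and 3 fell short of the threshold (median -0.80, or -0.65 with undetected genes at their limit). Otx1, the paralog of Otx2, read 12.44, 12.38 and 12.61 on the NE arrays and 11.35, 11.27 and 11.12 on the SE arrays, 2.34-fold higher in NE. Otx1 thus repeated the pattern of Otx2, high and detected in both tissues with NE above SE. Sox2, which acts together with Otx2 on eye field genes, was 2.05-fold, Dkk1, a secreted Wnt antagonist needed for the head, at least 1.99-fold and Foxa2 at least 1.68-fold higher in NE. Dkk1 and Foxa2 were detected on no SE array, so they too had to differ. The NE count fell to 3 with probes detected on all 6 arrays.

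Corepressors and modifiers did not move one way: 6 were tested, with NE the higher tissue for 2, SE for 2 and neither for the remaining 2 (median 0.11). The NE count fell to 1 with any single array left out other than NE array 2, the SE count fell to 1 with any left out other than SE array 1, and both fell to 1 with the replicate block. Tle4, a Groucho corepressor, was 2.20-fold higher in NE at its brightest probe, and its 3 tested probes lay between -1.43 and -1.14. Tle1, the corepressor that Hesx1 recruits, was 1.20-fold higher in NE at its brightest probe, but its 3 probes ran from -0.36 to 0.31 and disagreed in direction. Eya1, a phosphatase and transcriptional coactivator, was 3.78-fold higher in SE, and the 2 probes of Eya3 disagreed in direction.

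Genes reported elsewhere as targets of these regulators lay above SE in NE in 6 of 10 cases and below it in 2, the rest missing the threshold (median -1.15). Among the 6, Shh, Wnt8b and Wnt1 were detected on no SE array at their brightest probes, so they had to differ. The NE count fell to 3 with probes detected on all 6 arrays. Shh, which Six3 activates in the ventral forebrain, read 8.83, 8.35 and 8.08 on the NE arrays and 4.39, 4.83 and 4.40 on the SE arrays, at least 12.1-fold higher in NE. That is its brightest probe, and its 2 tested probes ran from -3.88 to -1.18 (log2). For the genes that Six3 represses the difference was at least 10.02-fold higher in NE for Wnt8b and at least 3.12-fold for Wnt1, and Fgf15 was 6.59-fold higher. NE therefore held both the repressor Six3 and these 2 Wnt genes, in tissue that was not divided further.

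Lens and placode genes lay on the SE side: SE exceeded NE for 6 of the 8 tested and NE exceeded SE for 1, and 1 fell short (median 0.99, or 0.95 with undetected genes at their limit). Dlx3, an ectodermal homeobox gene, was 9.79-fold higher in SE. Cryab, a small heat shock protein of the lens, was at least 5.48-fold, Dlx5 at least 2.38-fold and Eya2 2.52-fold higher in SE. Cryab and Dlx5 were detected on no NE array, so they had to differ. The SE count fell to 5 with any single array left out and to 3 with probes detected on all 6 arrays. Prox1, named after its value was seen, was 2.09-fold higher in NE. The lens regulators Foxe3, Maf and Pitx3 and the crystallin Cryaa were not detected on any array.

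Paralogs of the regulators, leaving out the regulators themselves, did not share their direction: of the 6 that were tested NE was above SE for 2 and SE above NE for 2, and 2 missed the threshold (median 0.27). The SE count fell to 1 without NE array 2, NE array 3, SE array 2 or SE array 3, as it did without background correction, without the detection filter and without variance moderation, and to 0 with probes detected on all 6 arrays. Besides Otx1, Six5 was 1.41-fold higher in NE. Pax3, a gene of the neural plate border, was 1.56-fold and Lhx8 1.38-fold higher in SE, both near the detection limit.

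**Figure D4:**
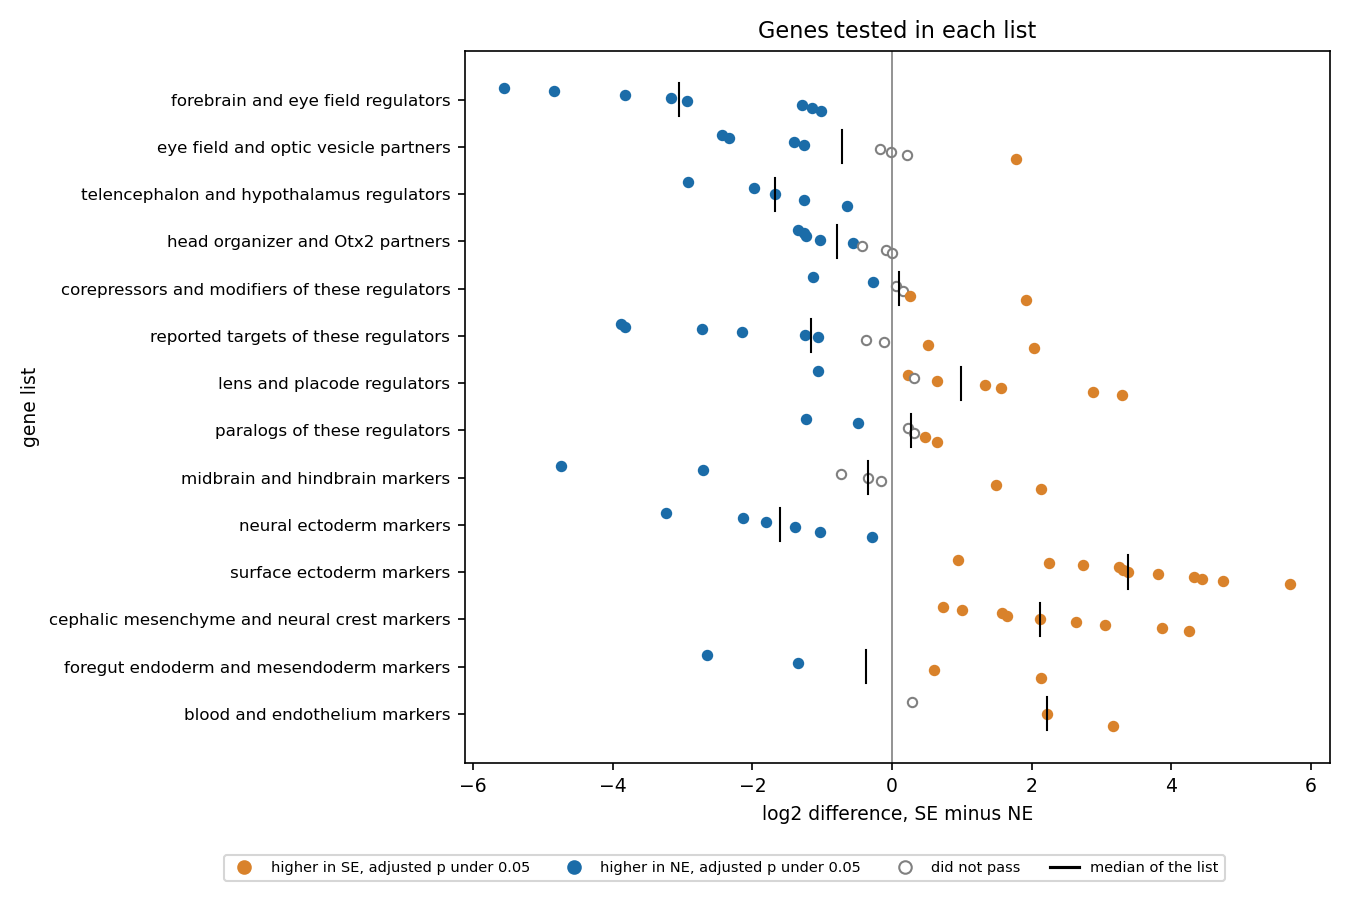
Fitted log2 difference, SE minus NE (horizontal axis), of every tested gene at its brightest probe in each of 14 lists (vertical axis), filled where the adjusted p was under 0.05 and coloured by direction, with the median of each list as a vertical bar. The 8 regulators lie left of 0 with a median of -3.05, which is -2.84 with the 4 genes undetected in SE at their limits, the lens and placode genes mostly lie to the right, and 11 of 11 surface ectoderm markers lie to the right.

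The tissues matched their labels by most defining markers. All 11 tested surface ectoderm markers were higher in SE (median 3.38), with Foxi2 52.2-fold higher, and all 6 tested neural ectoderm markers were higher in NE (median -1.60), with Pou3f1 9.47-fold higher. Epcam was detected on no array, and Sox1, Cdh2, Tubb3 and Fabp7 on too few to be tested. The 6 tested neural markers were nevertheless detected on every SE array, their summed signal reaching 779 to 840 in SE and 2127 to 2225 in NE. All 9 tested markers of cephalic mesenchyme and neural crest were higher in SE, at a summed signal of 3887 to 4700 against 721 to 1125 in NE. Alx1, Alx4 and Dcn were undetected in NE, so they had to differ. The count of 9 fell to 5 with probes detected on all 6 arrays. Of the 4 tested genes of foregut endoderm and mesendoderm, Foxa1 and Foxa2 were higher in NE and, being undetected in SE, had to differ. Nkx2-3 was 4.39-fold and Hhex 1.51-fold higher in SE. The SE count of 2 fell to 1 without NE array 3, SE array 2 or SE array 3. It was also 1 without the detection filter and was 0 without variance moderation. The NE count fell to 0 with probes detected on all 6 arrays. Of 3 blood and endothelium genes the globins Hbb-y and Hba-x were higher in SE. The summed signal of all 3 genes was 1591 to 3046 in SE, against 245 to 621 in NE. The part of these other cells, and of neural tissue in SE, in the levels of Fezf1, Fezf2, Otx2 and Six3 in SE was not tested.

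The genes whose profiles over the 6 arrays came closest to each regulator were found by Euclidean distance between log2 profiles centred on their means. The regulators themselves were left out of this search, so it does not show how close they lie to each other. Nearest to Rax were Pdzph1 (distance 0.323), Miat (0.437) and Rfx4 (0.902), and the same 3 genes were nearest to Lhx5. Pou3f1 was nearest to Lhx2 (0.185), followed by Jakmip2 and Reln, and Nrcam, a neural adhesion molecule, was nearest to Fezf1 (0.200), followed by Slitrk5 and Ppm1e. Scube2 (0.400), Wnt8b (0.410) and Sall3 (0.419) were nearest to Fezf2, and Dbx1 (0.163), Aatk and Rundc3a to Hesx1. Six3 was nearest to Ttyh1 (0.162), Crx and Pex5l, and Otx2 to Tspoap1 (0.150), AU020206 and Grem1. With 6 arrays in 2 groups, such likeness is mostly that of a similar difference between the tissues.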

How the data were processed

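RNA of 3 NE and 3 SE pools of mouse embryos was measured on Illumina MouseWG-6 v2 arrays. Per the labels, the authors labelled the RNA with biotin and exported the scans with BeadStudio, version not given in the sources used here. One deposited table holds, for each of 45281 probes and each array, a signal intensity without normalization and a detection p-value computed by the authors' software. A second deposited table holds intensity values that are these signals times 1 constant per array, each array having a mean of 420.0, with no log and no centring.

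Arrays were assigned through the sample descriptions. limma 3.58.1 in R 4.3.3 corrected background and normalized by quantiles (neqc, offset 16), which compresses differences near the background. Probes with detection p under 0.05 on at least 3 arrays were kept (19590 probes, 10603 genes), fitted with lmFit and eBayes as SE minus NE, two-sided, with p-values adjusted over all of them (Benjamini-Hochberg). Where a tissue detected a probe on no array, the fold is a lower limit, from the bright group's mean log2 value against the mean, over the other tissue's arrays, of the lowest signal detected or the probe's own if higher. A gene is represented by its tested probe with the highest mean. The arrays detected 19174 to 19402 probes in NE and 18916 to 19068 in SE, and 3 arrays a tissue limit the precision.

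Names came from the platform annotation: 34885 probes had 1 symbol, 18 several and 10378 none. The text names all 10 regulators and up to 4 genes of each list with the largest difference. It also names the 3 genes nearest to each regulator, the regulators themselves left out. Others, named to complete small counts or to give undetected genes, were chosen after their values were seen. The regulators and the lists were chosen with earlier results of these data known. Some genes of these lists are not reported here. Promoters came from a RefSeq table, those of Rax and Lhx5 not being used here. The array tables name no genome build. The fit was tested on simulated data, and matplotlib 3.10.9 with Python 3.11.15 made the plots. The methods give the replicates as independent experiments.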

Additional observations from a re-analysis of the deposited data

How the results depend on the processing

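The 8 tested regulators were higher in NE, with an adjusted p under 0.05 in limma, without background correction, with an offset of 50, with median centring, with the deposited scaled values, without the detection filter, without variance moderation, with the replicate block and without each array in turn. Keeping probes detected on all 6 arrays left 4 of them to test, Fezf1, Fezf2, Otx2 and Six3, and all 4 were higher in NE. Averaging the tested probes of a gene gave log2 differences of -4.12 for Rax, -3.49 for Fezf2 and -0.79 for Six3 in place of -4.84, -3.82 and -1.15. Over all alternatives the log2 differences ran from -5.62 to -3.86 for Lhx5, -4.91 to -3.24 for Rax, -3.96 to -3.15 for Fezf2, -3.23 to -1.72 for Lhx2, -3.02 to -2.83 for Fezf1, -1.50 to -0.54 for Hesx1, -1.22 to -0.61 for Six3 and -1.10 to -0.91 for Otx2. Without background correction the values were -3.87, -3.26, -1.76 and -0.58 for Lhx5, Rax, Lhx2 and Hesx1, undetected in SE, but also -3.15 for Fezf2 and -0.63 for Six3, detected there, against -2.83 for Fezf1 and -0.998 for Otx2. Which of Otx2 and Six3 differs less therefore depends on this choice. The largest adjusted p was 0.0279, for Hesx1 without variance moderation. Of 364 counts over gene lists, 331 stayed within 1.5 times and 33 did not.

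The deviations of same-numbered NE and SE arrays correlated at -0.037, -0.031 and -0.020, and those of unlike-numbered arrays at -0.008 to 0.040. No shared replicate effect was visible. The study compared SE with NE within each replicate, and the numbers of NE arrays 2 and 3 are uncertain. Neither these correlations nor the replicate block can therefore settle whether the samples were paired. With the replicate block 8 of 8 tested regulators were higher in NE, and over all probes 3530 were higher in NE and 2980 in SE, against 3958 and 3348 without it. Signal over background limits Six6, Pax6 and the SE levels of Rax, Lhx2, Lhx5 and Hesx1, and low signals close to the detection limit, as at the second Six3 probe, have no secure fold.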
